A study of Homo sapiens with 4 samples.

Results

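The genes described here encode chromatin factors that work against Polycomb repression: SWI/SNF remodelling subunits, demethylases of lysine K27 of histone H3, and trithorax-type methyltransferases with their shared subunits and partners. They are 42 of the 60623 genes in the deposited table and were taken by gene name. Of these, 25 are SWI/SNF subunits, 3 are H3K27 demethylases, 6 are H3K4 methyltransferases, 5 are subunits or partners shared by the COMPASS complexes, 1 is the H3K36 methyltransferase NSD1, and 2 are the acetyltransferases EP300 and CREBBP. The libraries came from T24 cells, a line established from a human bladder carcinoma, kept in RPMI medium with serum. Of the 4 libraries, 2 were controls and 2 came from cells made to overexpress CBX7, a chromobox reader of Polycomb-marked chromatin, and the question put to them was which transcripts change when CBX7 is raised. The study's methods describe the CBX7 construct as the whole coding gene in a FLAG-tagging pCDH vector. The labels do not say what the control cells received or whether a group was a single clone. Nothing in the labels says that the libraries of a group came from separate cultures, so p-values measure only the spread between these libraries, which may be technical.

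Polycomb proteins keep developmental genes silent by ubiquitinating histone H2A and methylating H3K27, and CBX7 binds that methyl mark within the canonical PRC1 complex. SWI/SNF complexes use ATP to move and evict nucleosomes and can displace Polycomb complexes, KDM6 demethylases erase the H3K27 methyl mark, and the COMPASS methyltransferases place H3K4 methylation at active promoters and enhancers. Genes of this group, above all KDM6A, KMT2D and ARID1A, are among those most often mutated in urothelial carcinoma.

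The expected counts of the 4 libraries summed to between 20800910 and 25135488. CBX7 was at 10.9 and 9.67 CPM (a gene's count relative to the total of its library, after TMM scaling) in control replicates 1 and 2 and at 1774 and 1595 CPM in CBX7 replicates 1 and 2, so its level matched all 4 labels. Its log2 fold change was 7.35 (standard error 0.182, edgeR, adjusted p = 0.000584). Markers of differentiated urothelium were mostly at or near 0: 2 of 8 urothelial genes, 0 of 4 basal genes, 3 of 4 epithelial genes and 3 of 3 mesenchymal genes had a mean of at least 1 TPM, as did 0 of 6 markers of blood, endothelial, liver and smooth muscle cells. TPM is the abundance of a gene's transcripts per length. In the comparison over 14862 genes, 3 genes (0.0202%) had an adjusted p under 0.05 in edgeR's quasi-likelihood test. CBX7 replicate 1 stood apart from the other 3 libraries in a trend with gene length, which touches many of the genes below. The counts and medians of the group and the fold changes of its main genes are therefore also given after each library was corrected for its trends with gene length and GC content.

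The most abundant transcripts of the group by deposited TPM were those of ACTL6A and SMARCB1, and the least abundant included both H3K27 demethylases that were measured. Of the 42 genes, 40 passed the filter on low counts, with counts between 156.0 and 4496 in single libraries. Their median level over the 4 libraries was 25.3 TPM, against 11.9 TPM for all genes tested. ACTL6A, the actin-related subunit of dividing cells, led by deposited TPM with a mean of 112.1, followed by SMARCB1 at 104.4, DPY30 at 93.9, SMARCE1 at 90.9, SS18 at 73.2 and WDR5 at 64.6 TPM. At the other end were SETD1B at 6.66, KDM6A at 6.44, BCL7A at 5.36 and KDM6B at 3.38 TPM. ACTL6B, the neuronal counterpart of ACTL6A, had a count of 0 in all 4 libraries, which allows up to 3 counts, or 0.119 to 0.144 CPM. Such limits cover counting error only. UTY did not pass the filter and is given no level. Neighbors in this order were mostly closer than their spread: SMARCB1 was at 98.6 ± 18.2 TPM in control cells and DPY30 at 90.4 ± 5.23 TPM (SD, n = 2). With counts divided by the table's gene length in place of the deposited TPM, 9 of the 10 highest genes were the same, but the order changed. BCL7B was then highest at 120.2, just above ACTL6A at 119.6 (scaled to sum as TPM does), SMARCE1 went from rank 4 to rank 14, and BCL7A took the place of KDM6B as the lowest.

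**Figure D1:**
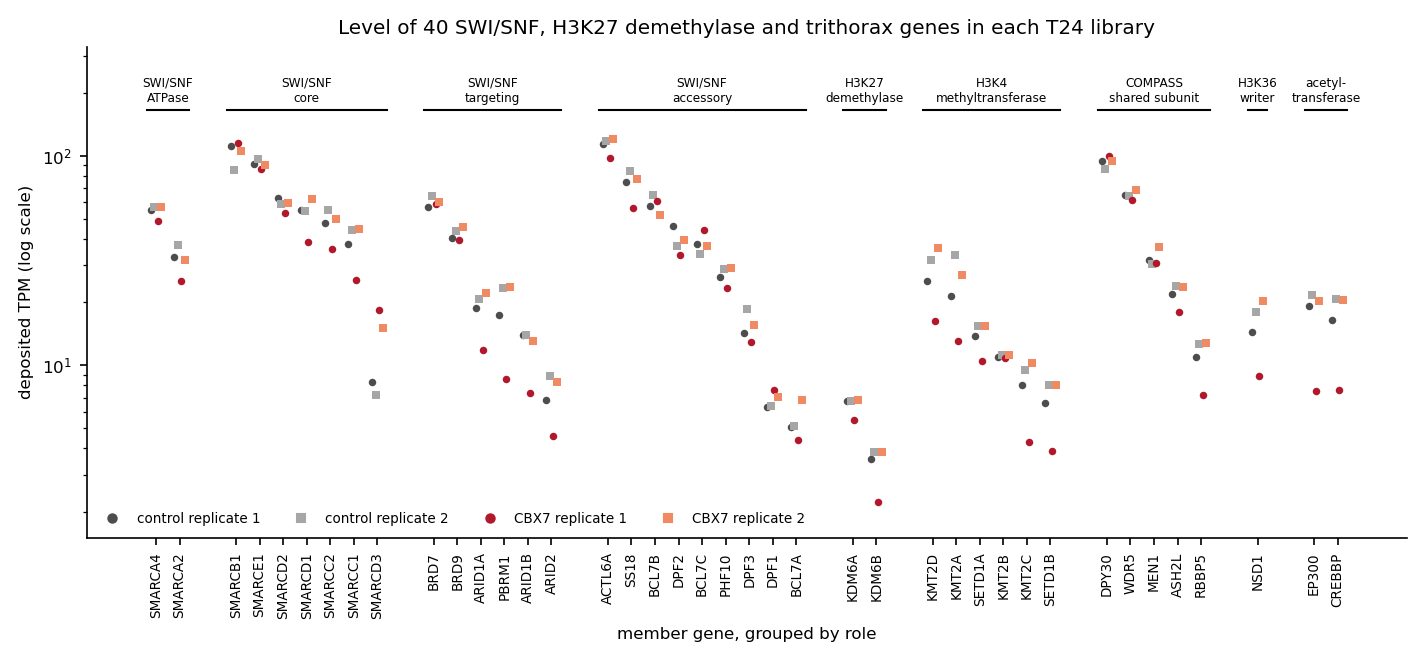
Deposited TPM (log scale) of the 40 genes that passed the filter, grouped by role and ordered by mean level within a role, with 1 point per library. ACTL6A stood highest at a mean of 112.1 TPM and KDM6B lowest at 3.38 TPM, and CBX7 replicate 1 was the lowest library for 32 of the 40 genes.

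Library by library, CBX7 replicate 1 had the lowest TPM for 32 of the 40 genes, beside 58.6% of all genes tested, and CBX7 replicate 2 the highest for 17, beside 35.6%. In TMM-scaled CPM, CBX7 replicate 1 was lowest for 23 and highest for 15, beside 38.7% and 40.3% of all genes. Low values of this 1 library recur in the roles described next.

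The remodelling ATPases were measured with small differences between the groups. SMARCA4 (BRG1) and SMARCA2 (BRM) are the alternative motors of SWI/SNF. SMARCA4 was at 161.1 and 158.9 CPM in control replicates 1 and 2 and at 163.4 and 158.4 CPM in the CBX7 replicates, a log2 fold change of 0.0077 (standard error 0.123). SMARCA2 was at 64.8 and 70.2 CPM in control cells and at 52.3 and 65.6 CPM with CBX7, a log2 fold change of -0.20 (standard error 0.163), which shrank to -0.06 (standard error 0.0698) after the length and GC correction. Per length, SMARCA4 was at 54.7, 56.7, 48.9 and 56.8 TPM and SMARCA2 at 32.6, 37.6, 25.3 and 31.7 TPM in control 1, control 2, CBX7 1 and CBX7 2. The share of SMARCA4 in the summed TPM of the pair was 61.4% ± 1.76 in control cells and 65.0% ± 1.16 with CBX7 (SD, n = 2). These shares did not overlap between the groups, whereas with counts divided by the table's gene length they were 71.6% ± 1.36 and 74.4% ± 3.46 and overlapped.

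Among the core subunits, SMARCD3 was the member with the largest change. SMARCD3 (BAF60C) is best known from heart and skeletal muscle, where it links SWI/SNF to tissue-specific transcription factors, while SMARCD1 and SMARCD2 are its more widely expressed paralogs. Its gene, ENSG00000082014, is annotated at 151238764 to 151277896 on chromosome 7 of GRCh38 (minus strand). RefSeq lists 3 starts for it, and the bases before each are shown because SMARCD3 carries the clearest difference of the group. Each sequence is the 250 bases upstream of a start, written 5′ to 3′ on the gene's strand, with CpG dinucleotides in capitals. The windows lie in order at chr7:151277150-151277399, chr7:151276735-151276984 and chr7:151248695-151248944 (GRCh38.p14, minus strand), and that of the only start of SMARCD1, for comparison, at chr12:50085092-50085341 (plus strand).
SMARCD3 start 1: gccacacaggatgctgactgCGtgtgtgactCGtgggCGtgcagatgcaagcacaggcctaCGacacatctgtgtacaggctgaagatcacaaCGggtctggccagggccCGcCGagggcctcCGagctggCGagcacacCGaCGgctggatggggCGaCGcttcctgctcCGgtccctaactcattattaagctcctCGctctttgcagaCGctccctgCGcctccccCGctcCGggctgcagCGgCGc
SMARCD3 start 2: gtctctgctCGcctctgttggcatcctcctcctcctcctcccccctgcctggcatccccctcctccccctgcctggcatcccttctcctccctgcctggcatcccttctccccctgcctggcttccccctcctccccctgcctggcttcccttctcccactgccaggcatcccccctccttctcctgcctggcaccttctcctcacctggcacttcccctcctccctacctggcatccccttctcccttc
SMARCD3 start 3: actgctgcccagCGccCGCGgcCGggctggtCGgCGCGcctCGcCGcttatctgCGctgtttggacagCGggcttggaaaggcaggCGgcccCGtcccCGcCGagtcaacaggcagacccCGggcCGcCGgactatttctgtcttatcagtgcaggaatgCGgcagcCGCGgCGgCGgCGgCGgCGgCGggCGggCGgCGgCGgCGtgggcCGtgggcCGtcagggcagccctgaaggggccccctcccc
SMARCD1: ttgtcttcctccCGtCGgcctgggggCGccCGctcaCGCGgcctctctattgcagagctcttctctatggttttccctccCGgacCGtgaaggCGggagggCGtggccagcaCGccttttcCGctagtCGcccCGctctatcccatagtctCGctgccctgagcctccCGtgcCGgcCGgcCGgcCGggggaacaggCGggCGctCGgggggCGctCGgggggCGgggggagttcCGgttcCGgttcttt
These windows held 21, 1 and 34 CpG for SMARCD3 and 28 for SMARCD1. As many or more were found in 30.2%, 93.9%, 6.84% and 15.9% of all RefSeq promoters of that length. The table gives 1 value per gene, so the starts could not be told apart.

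SMARCD3 had expected counts of 187.7 and 158.0 in control replicates 1 and 2 and of 565.0 and 337.6 in CBX7 replicates 1 and 2. In TMM-scaled CPM it was at 7.88 and 7.53 in control cells and at 23.4 and 15.1 with CBX7, and in TPM at 8.28 and 7.19 against 18.4 and 15.1. Both CBX7 libraries were above both control libraries on all these scales, and CBX7 replicate 1 was the higher one. The gene is 1.99 kb long in the table, and between the replicate 1 libraries 3 of the 14 members under 3 kb had a log2 ratio below 0. The fitted level was 2.50-fold that of control cells, a log2 fold change of 1.32 (standard error 0.243, edgeR, adjusted p = 0.38 over all genes tested). After the length and GC correction the log2 fold change was 1.24 (standard error 0.164, edgeR, adjusted p = 0.115). The adjusted p of this gene therefore missed the threshold in both fits. It passed in other fits, with adjusted p = 0.00347 by DESeq2's Wald test and 2.77e-07 by edgeR without the filter on low counts, and over all alternatives it ranged from 9.47e-25 to 0.942. The smallest of these came from leaving out CBX7 replicate 2, where the spread was taken from the control libraries alone. Without the filter, with a replicate block or with any library left out, edgeR gave genes of similar level the same spread. The gene's own spread, which counted in part in the main fit, then did not enter. The higher level was seen with either CBX7 library alone, at a log2 fold change of 0.98 in the fit without CBX7 replicate 1 and 1.60 in the fit without CBX7 replicate 2. Exons of SMARCD3 overlap those of CHPF2 on the opposite strand by 64 bases, or 1.23% of its exon bases, and CHPF2 had 2838, 2289, 2730 and 2461 counts in the order given above. AC021097.1, also on the opposite strand, overlaps them by 574 bases and had 3.32, 11.0, 0 and 9.42 counts.

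The paralogs of SMARCD3 had fold changes near 0. SMARCD2 was at 99.1 and 92.1 CPM in control cells and at 105.7 and 91.3 CPM with CBX7 (log2 fold change 0.04, standard error 0.143). SMARCD1 was at 110.7 and 107.3 CPM against 99.3 and 114.2 CPM (log2 fold change -0.03, standard error 0.138). Their groups overlapped. In TPM, SMARCD2 was at 62.4, 58.8, 53.4 and 59.3 and SMARCD1 at 55.0, 54.6, 38.6 and 61.9 in control 1, control 2, CBX7 1 and CBX7 2. The share of SMARCD3 in the summed TPM of the 3 paralogs was 6.59% and 5.96% in control cells and 16.6% and 11.1% with CBX7, or 6.27% ± 0.442 against 13.9% ± 3.92 (SD, n = 2). SMARCD2 held 49.2% ± 0.634 of the sum in control cells and 46.0% ± 3.45 with CBX7, and SMARCD1 held 44.5% ± 1.08 and 40.2% ± 7.36. An exact permutation test of 2 against 2 libraries cannot give a two-sided p under 0.333, so no p is attached to these shares.

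Of the other core subunits, none had an unadjusted p under 0.05. SMARCB1, lost in rhabdoid tumors, was at 111.4, 85.7, 115.1 and 105.3 TPM in control 1, control 2, CBX7 1 and CBX7 2, and its log2 fold change was 0.23 (standard error 0.187) before and 0.06 after the correction. SMARCC2 and SMARCC1, the paired scaffolds, were at 47.9, 54.7, 35.9 and 49.9 TPM and at 37.7, 44.3, 25.4 and 44.5 TPM. SMARCC2 held 55.6% ± 0.474 of their sum in control cells and 55.7% ± 4.03 with CBX7 (SD, n = 2). Which of the pair led depended on the measure, since with counts divided by the table's gene length SMARCC2 held a mean of 48.2%. MYL6 on the opposite strand covers 6.01% of the exon bases of SMARCC2. It had 20005, 16495, 27107 and 16203 counts in the same order of libraries. The level of SMARCC2 is therefore uncertain where reads were counted without strand. SMARCE1, the HMG-box subunit, was at 91.7, 95.8, 85.9 and 90.3 TPM (log2 fold change 0.04, standard error 0.138).

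The targeting subunits decide which form of SWI/SNF is built: ARID1A and ARID1B mark canonical BAF, ARID2, PBRM1 and BRD7 mark PBAF, and BRD9 marks the non-canonical form. ARID1A led its set at 18.7, 20.7, 11.8 and 22.1 TPM in control 1, control 2, CBX7 1 and CBX7 2, and ARID1B followed at 14.0, 13.9, 7.37 and 13.0 TPM. ARID1B had the most negative fold change of all 40 genes. It was at 54.7 and 57.2 CPM in control cells and at 32.7 and 52.1 CPM with CBX7, with both CBX7 libraries below both control libraries. The log2 fold change was -0.40 (standard error 0.237, edgeR, adjusted p = 0.951), and after the correction it was -0.28 (standard error 0.0928, adjusted p = 0.55). Over all alternatives its adjusted p ranged from 4.17e-09, without CBX7 replicate 2, to 1.0. The gene is 10.8 kb long in the table, and its deficit was mostly in CBX7 replicate 1. Relative to control replicate 1 the log2 ratio was -0.74, while for the replicate 2 libraries it was -0.13.

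ARID1A and ARID2 overlapped between the groups, with log2 fold changes of -0.25 and -0.27 (standard errors 0.246 and 0.317). After the length and GC correction they were -0.18 and -0.12, and without CBX7 replicate 1 they were 0.05 and 0.13. Between the replicate 2 libraries the log2 ratio of CPM was -0.07 for ARID1A and -0.03 for ARID2. As shares of the summed TPM of the ARID set, ARID1A was at 47.5% ± 0.144 in control cells and 50.3% ± 0.951 with CBX7, ARID1B at 33.7% ± 2.35 and 30.5% ± 0.777, and ARID2 at 18.8% ± 2.20 and 19.2% ± 0.174 (SD, n = 2). Among the bromodomain subunits, BRD7 was at 57.1, 63.9, 58.9 and 59.8 TPM and BRD9 at 40.5, 43.4, 39.6 and 45.5 TPM in the same order of libraries. BRD9 did not overlap in CPM, at 68.8 and 72.5 against 83.9 and 73.1, but its log2 fold change was only 0.15 (standard error 0.140, edgeR, adjusted p = 0.951). PBRM1, at 5.14 kb, was at 17.3, 23.3, 8.60 and 23.6 TPM, and its share of the set was 15.0%, 17.8%, 8.03% and 18.3%. The low value again belonged to CBX7 replicate 1 alone. ADCY7 on the opposite strand covers 42.3% of the exon bases of BRD7, so the level of BRD7 is uncertain where reads were counted without strand.

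Among the accessory subunits, BCL7A was the other member with an unadjusted p under 0.05. BCL7A, BCL7B and BCL7C are small subunits of all SWI/SNF forms, and BCL7A is deleted or mutated in some lymphomas. BCL7A, or ENSG00000110987, is annotated at 122019422 to 122062044 on chromosome 12 of GRCh38 (plus strand), and the bases before its RefSeq start at chr12:122021634-122021883 (GRCh38.p14, plus strand) are shown as the counterpart of the SMARCD3 windows, again with CpG in capitals.
BCL7A: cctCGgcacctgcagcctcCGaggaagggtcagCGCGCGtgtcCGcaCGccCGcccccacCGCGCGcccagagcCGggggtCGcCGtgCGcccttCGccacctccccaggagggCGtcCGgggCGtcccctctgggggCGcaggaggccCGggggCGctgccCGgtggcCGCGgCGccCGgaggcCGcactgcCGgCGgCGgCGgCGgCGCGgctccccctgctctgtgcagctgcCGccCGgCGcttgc
This window held 38 CpG, a number reached by 3.28% of all promoters of that length. BCL7A was at 12.3 and 12.8 CPM in control cells and at 16.6 and 15.8 CPM with CBX7, and the groups did not overlap. The log2 fold change was 0.37 (standard error 0.142, edgeR, adjusted p = 0.951), and after the correction it was 0.46 (standard error 0.141, adjusted p = 0.482). The unadjusted p was no longer under 0.05 with upper-quartile normalization, with the Wald test of DESeq2, with no filter on low counts, with limma on log2(TPM + 1) or log2(TPM + 0.1), or with either control library left out. Over all alternatives its adjusted p ranged from 0.0203, without CBX7 replicate 2, to 1.0. In the deposited TPM the groups did overlap, at 5.05 and 5.13 against 4.41 and 6.85. The transcript length implied by count and TPM together was 3.94, 4.23, 5.14 and 3.96 kb in these libraries, so the scale of CBX7 replicate 1 differed between the units.

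BCL7B led its set at 57.8, 64.8, 60.5 and 51.8 TPM in control 1, control 2, CBX7 1 and CBX7 2, and BCL7C followed at 37.7, 33.8, 44.3 and 37.1 TPM. BCL7C was at 36.3 and 32.7 CPM in control cells and at 54.2 and 33.1 CPM with CBX7, so its log2 fold change of 0.34 (standard error 0.250, edgeR, adjusted p = 0.951) came from CBX7 replicate 1. It shrank to 0.04 (standard error 0.0991) after the correction, and without CBX7 replicate 1 it was -0.06. The BCL7C gene is 1.60 kb long. BCL7B held 60.0% ± 3.54 of the set's TPM in control cells and 54.7% ± 0.881 with CBX7, and BCL7A held 4.98% ± 0.0526 and 5.60% ± 2.20 (SD, n = 2). The share of BCL7A depended on the unit, at 2.38% and 2.88% of the set's counts divided by gene length and at 11.7% and 13.7% of the undivided counts.

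DPF2 led the double-PHD-finger subunits at 46.0, 37.0, 33.5 and 39.4 TPM, ahead of PHF10, the PBAF-specific member, at 26.3, 28.8, 23.3 and 29.2 TPM. With counts divided by gene length their mean shares of the set were 40.7% and 39.7%, and PHF10 led in control replicate 2. DPF3 and DPF1, which are best known from muscle and neurons, were lower at means of 15.3 and 6.83 TPM. DPF1 did not overlap in CPM, at 7.92 and 7.43 against 11.0 and 8.28 (log2 fold change 0.33, standard error 0.200, corrected 0.09). ACTL6A was at 113.8, 116.9, 97.9 and 120.0 TPM and held 100% of the TPM of its pair in every library. SS18, the subunit fused to SSX in synovial sarcoma, was at 148.1 and 157.2 CPM in control cells and at 137.4 and 141.5 CPM with CBX7 (log2 fold change -0.13, standard error 0.126).

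**Figure D2:**
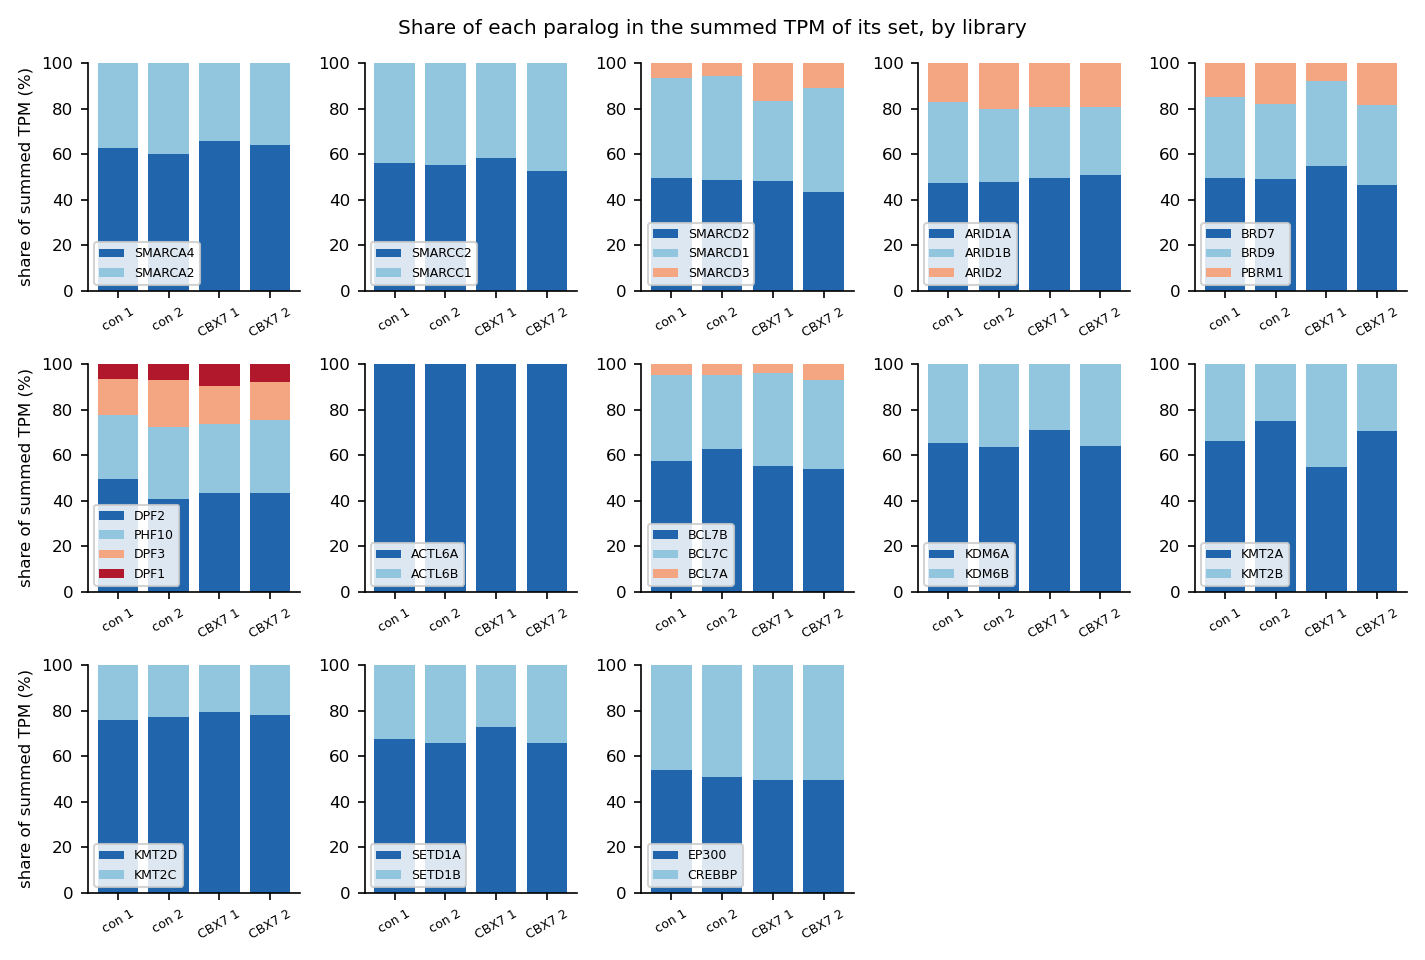
Share (%) of each paralog in the summed deposited TPM of its set, 1 bar per library (con, control), for 13 sets. SMARCD3 took 6.59% and 5.96% of its set in the control libraries and 16.6% and 11.1% in the CBX7 libraries, and in 11 of the 13 sets the same paralog led in every library.

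Across the 13 paralog sets drawn in the plot of shares, the leading gene was the same in all 4 libraries for 11. The exceptions were the SMARCD set, in which SMARCD1 passed SMARCD2 in CBX7 replicate 2 alone at 45.4% against 43.5%, and the acetyltransferase pair. In that pair EP300 led in both control libraries and CREBBP in both CBX7 libraries, each by a small margin, and with counts divided by the table's gene length EP300 led in all 4.

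The H3K27 demethylases were among the least abundant genes of the group. KDM6A (UTX) was at 6.73, 6.71, 5.50 and 6.83 TPM and KDM6B (JMJD3) at 3.57, 3.86, 2.23 and 3.85 TPM in control 1, control 2, CBX7 1 and CBX7 2. In CPM, KDM6A was at 15.6 and 16.9 against 12.1 and 16.6, and KDM6B at 18.1 and 17.0 against 13.3 and 18.4. Both overlapped between the groups, with log2 fold changes of -0.19 and -0.15 (standard error 0.197 for each). They were -0.06 and -0.19 after the length and GC correction, and 0.03 and 0.07 without CBX7 replicate 1. Between the replicate 2 libraries the log2 ratio of CPM was -0.03 for KDM6A and 0.11 for KDM6B. KDM6A held 64.4% ± 1.31 of their summed TPM in control cells and 67.6% ± 5.09 with CBX7 (SD, n = 2). With counts divided by the table's gene length its mean share was 51.0%, so the lead of KDM6A rested on the transcript lengths behind the deposited TPM.

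All 6 H3K4 methyltransferases had a negative log2 fold change, from -0.14 to -0.33, and none had an unadjusted p under 0.05. Without CBX7 replicate 1 it was above 0 for 4 of the 6, with a median of 0.13, while the log2 ratio of CPM between the replicate 2 libraries was below 0 for each, from -0.08 to -0.02. In a fit with the replicate number as a block, 3 of the 6 were lower at an unadjusted p under 0.05, beside 4.35% of all genes. With the correction for length alone 1 of the 6 was above 0, and with that for length and GC none was, at a median of -0.18. KMT2A and KMT2B methylate H3K4 at promoters together with menin, KMT2C and KMT2D act at enhancers, and SETD1A and SETD1B provide most promoter trimethylation. KMT2D was at 25.2, 31.7, 16.3 and 36.2 TPM in control 1, control 2, CBX7 1 and CBX7 2, and KMT2C at 8.02, 9.43, 4.28 and 10.2 TPM. In CPM, KMT2D was at 139.1 and 198.5 in control cells and at 77.6 and 191.4 with CBX7. Its log2 fold change of -0.33 (standard error 0.430, edgeR, adjusted p = 0.951) was -0.27 after the correction and changed sign to 0.19 without CBX7 replicate 1. At 19.4 kb it is the longest gene of the group. KMT2A, at 16.6 kb, was at 21.4, 33.4, 13.0 and 26.9 TPM and KMT2B at 11.0, 11.2, 10.8 and 11.2 TPM. SETD1A was at 13.8, 15.4, 10.4 and 15.4 TPM and SETD1B at 6.60, 8.07, 3.91 and 8.04 TPM. KMT2B was the exception in that its CPM did not overlap between the groups, at 42.5 and 44.4 against 37.0 and 42.1, with a log2 fold change of -0.14 (standard error 0.139) and -0.16 (standard error 0.0734) after the correction. By TPM, KMT2D held 76.5% of its pair in control cells and 78.6% with CBX7, SETD1A held 66.6% and 69.2%, and KMT2A held 70.5% ± 6.23 and 62.6% ± 11.3 (SD, n = 2).

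The shared COMPASS subunits, with gene lengths from 0.631 to 4.37 kb, had fold changes in both directions. WDR5, ASH2L, RBBP5 and DPY30 form the common module that activates the methyltransferases, and MEN1 encodes menin. Their log2 fold changes lay between -0.17 for RBBP5 and 0.27 for DPY30, with 3 of 5 above 0 and none with an unadjusted p under 0.05. MEN1 was at 64.1 and 57.0 CPM in control cells and at 72.3 and 68.1 CPM with CBX7 (log2 fold change 0.21, standard error 0.138, corrected 0.13), and WDR5 was at 144.8 and 138.2 against 161.8 and 145.4 CPM (log2 fold change 0.12, standard error 0.132). Neither gene overlapped between the groups in CPM, but both did in the deposited TPM. MEN1 was at 31.9 and 30.3 TPM in control cells and at 30.9 and 36.5 TPM with CBX7. WDR5 was at 64.7 and 64.0 against 61.3 and 68.3 TPM. MEMO1 shares 50.5% of the exon bases of DPY30 on the same strand, so the value of DPY30 is uncertain.

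NSD1, which methylates H3K36 and so keeps PRC2 from acting on H3K27, was at 14.4, 18.0, 8.86 and 20.3 TPM, with a log2 fold change of -0.15 (standard error 0.317) and of 0.01 after the correction. Without CBX7 replicate 1 it was 0.25. In that fit with a single CBX7 library, NSD1 was among 4 of the 40 genes that were higher at an unadjusted p under 0.05, and 1 was lower, beside 6.11% and 3.25% of all genes. The acetyltransferases EP300 and CREBBP, which acetylate H3K27 and thereby block its methylation, were at 19.2, 21.5, 7.49 and 20.2 TPM and at 16.5, 20.7, 7.62 and 20.5 TPM in the same order of libraries. In CPM, EP300 was at 103.5 and 126.1 in control cells and at 57.8 and 120.7 with CBX7. Its log2 fold change was -0.36 (standard error 0.348, edgeR, adjusted p = 0.951), and it was -0.28 after the correction and 0.08 without CBX7 replicate 1. For CREBBP it was -0.27 (standard error 0.257) and -0.17 after the correction, and both genes were above 0 without CBX7 replicate 1. Between the replicate 2 libraries the log2 ratio of CPM was -0.06 for EP300 and -0.04 for CREBBP. EP300 held 52.4% ± 2.08 of the pair's TPM in control cells and 49.6% ± 0.0692 with CBX7 (SD, n = 2), and both genes were close to equal in every library.

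**Figure D3:**
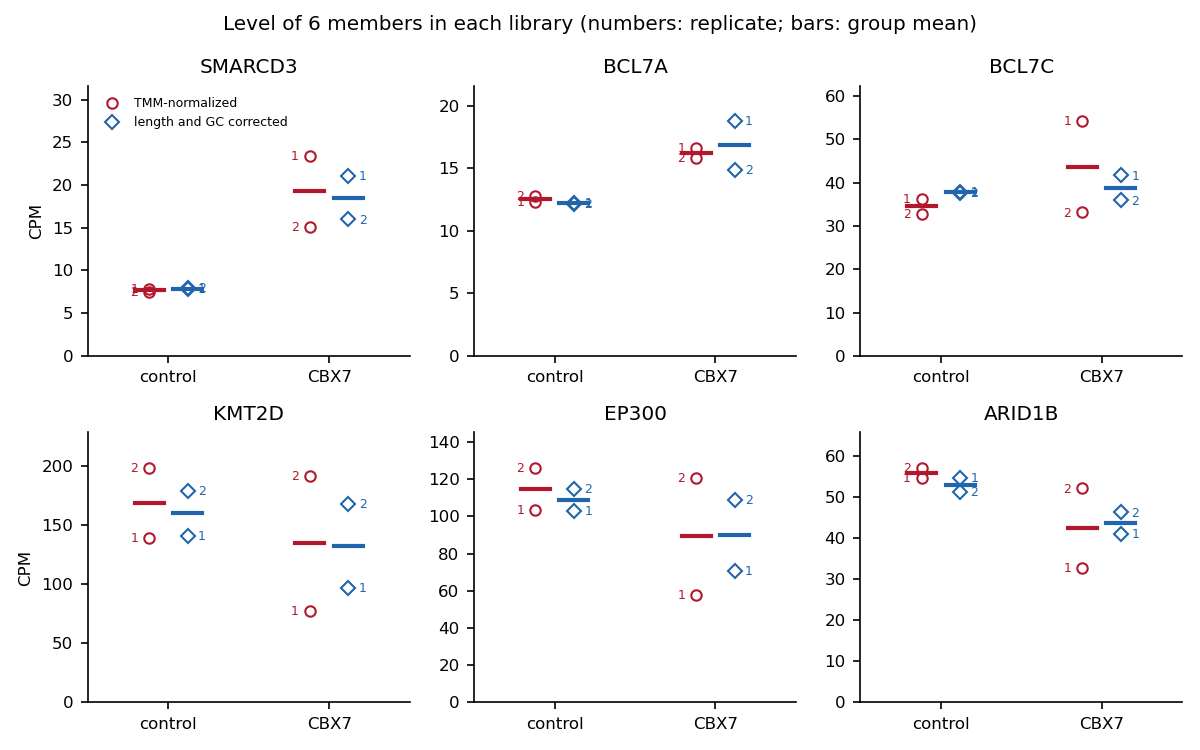
CPM in each library of the 3 genes with the highest and the 3 with the lowest fitted fold change, after TMM scaling (circles) and after length and GC correction (diamonds), with the replicate number beside each point and the group mean as a bar. SMARCD3 and BCL7A were higher in both CBX7 libraries on both scales, while the low means of KMT2D and EP300 came from CBX7 replicate 1.

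Over the whole group, no gene passed the adjusted threshold in edgeR's fit before or after the correction, and in both SMARCD3 was the only gene of the 40 with a difference beyond 0.5 on the log2 scale, beside 9.67% of all genes before and 9.00% after the correction. There were 3 such genes with log2(TPM + 1), beside 5.22% of all genes, and 5 with log2(TPM + 0.1), beside 12.1%. Without control replicate 1 there were 4, beside 15.9% of all genes, and without CBX7 replicate 2 there were 14, beside 27.5%. At an unadjusted p under 0.05, 2 of the 40 genes were higher with CBX7 (SMARCD3 and BCL7A) and 0 were lower, beside 3.42% and 1.32% of all 14862 genes tested. At an adjusted p under 0.05 the count was 0 by edgeR, beside 0.0202% of all genes, and 1 by DESeq2's Wald test (SMARCD3), beside 0.451% of all genes, of which 62 were higher and 5 lower. The CPM of the 2 groups did not overlap for 6 genes that were higher with CBX7 and 6 that were lower, beside 15.4% and 14.8% of all genes. The 6 higher were SMARCD3, BCL7A, BRD9, DPF1, WDR5 and MEN1, and the 6 lower were ARID1B, DPF2, PHF10, SS18, KMT2B and ASH2L. The median log2 fold change of the 40 genes was -0.10, against 0.0017 over all genes tested, and 24 of the 40 were below 0.

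After the length and GC correction the median moved to -0.06, with 26 of 40 below 0. Then 2 genes were higher (SMARCD3 and BCL7A) and 1 was lower (ARID1B) at an unadjusted p under 0.05, beside 4.55% and 3.30% of all genes. None had an adjusted p under 0.05, beside 0.0336% of all genes. The corrected CPM did not overlap for 8 higher and 12 lower genes, beside 19.7% and 20.2%. By role, the corrected median log2 fold change was -0.18 for the H3K4 methyltransferases, -0.22 for the acetyltransferases, -0.13 for the targeting subunits and 0.09 for the shared COMPASS subunits. The medians of the ATPases and of the core and accessory subunits were smaller in size than each of these. Without SMARCD3 the median of the other genes was -0.13 before and -0.06 after the correction. Without CBX7 replicate 1 the group's uncorrected median was 0.04, and those of the H3K4 methyltransferases, the acetyltransferases and the targeting subunits were above 0 as well. That fit keeps control replicate 1, whose median log2 ratio to control replicate 2 was -0.28 for the genes over 8 kb. Between the replicate 2 libraries alone, 9 of the 10 genes over 8 kb had a log2 ratio below 0, with a median of -0.05.

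**Figure D4:**
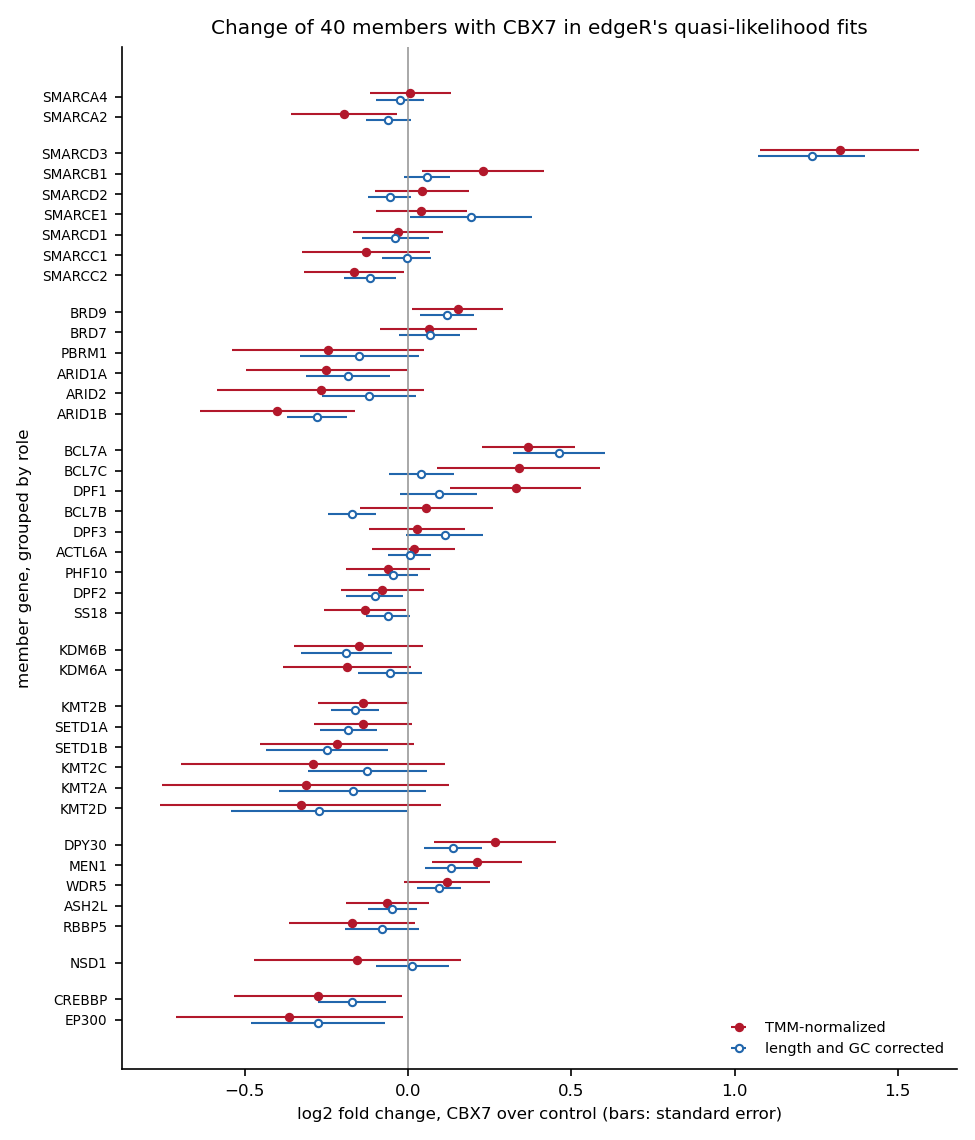
Log2 fold change with CBX7 and its standard error in edgeR's fit for each of the 40 genes, grouped by role, before (filled) and after (open) the length and GC correction. SMARCD3 stood alone at 1.32 and 1.24, and the standard errors of the long genes such as KMT2D fell from 0.430 to 0.269 with the correction.

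Many of these genes are long, and in 1 CBX7 library the long ones were low. Their median length in the table was 5.12 kb against 2.87 kb for all genes tested, and 10 of the 40 were longer than 8 kb against 6.31% of all genes. In the comparison of CBX7 replicate 1 with control replicate 1, the median log2 ratio was 0.26 for the 14 genes under 3 kb, -0.26 for the 16 genes of 3 to 8 kb and -0.69 for the 10 genes over 8 kb, of which 10 were below 0. The medians over all genes averaging 100 counts or more had the same order, at 0.19, -0.14 and -0.40. In the comparison of the replicate 2 libraries the medians of the group were -0.00079, -0.02 and -0.05, and those of all genes lay between -0.01 and 0.0024. The control libraries differed from each other too, with a median log2 ratio of control replicate 1 over control replicate 2 of -0.28 for the group's genes over 8 kb.

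Across the 40 genes, the log2 ratio of the replicate 1 libraries was correlated with log10 length at Pearson's r = -0.77 (Spearman's rho = -0.85), and that of the replicate 2 libraries at -0.19 (rho = -0.17). These describe genes that share 2 libraries and are not independent replicates. Among 11077 genes with at least 100 counts, r was -0.56 and 0.03. After the correction, r over the 40 genes was -0.48 in replicate 1, against -0.0023 over the 11077 genes, and the genes over 8 kb kept a median log2 ratio of -0.29 against -0.02 for all genes of that length. The correction used the range of length between the 1st and 99th percentile, up to 13.9 kb, which KMT2A, KMT2C and KMT2D exceed. Without those limits, an alternative chosen after seeing the data, the median for the genes over 8 kb was -0.30. The part of the length trend in the lower values of the long genes beyond this correction was not tested.

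**Figure D5:**
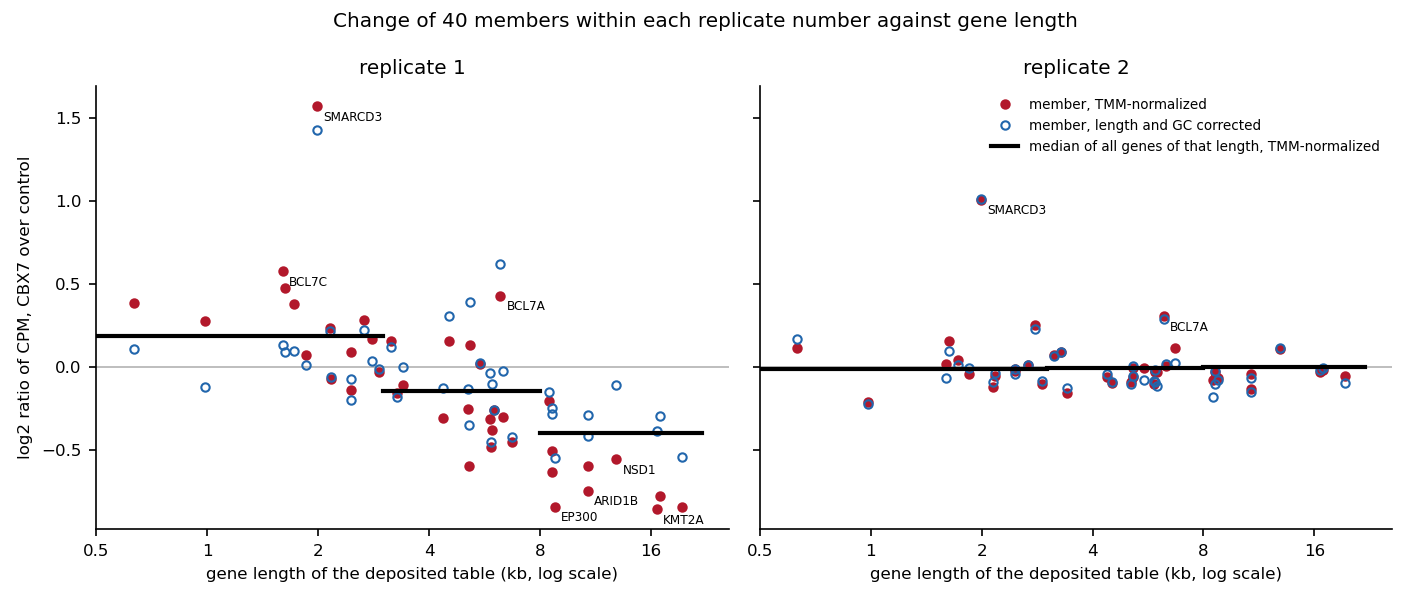
Log2 ratio of CPM, CBX7 over control, within the replicate 1 libraries (left) and the replicate 2 libraries (right) against gene length (log scale) for the 40 genes, before (filled) and after (open) the length and GC correction, with bars for the median of all genes of a length class. In replicate 1 the genes over 8 kb lay at a median of -0.69 and in replicate 2 at -0.05, while SMARCD3 was high in both at 1.57 and 1.01.

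For comparison, 26 other genes of the same pathways were listed. They comprised 6 further SWI/SNF genes, 10 further COMPASS genes and 10 other writers and readers of active chromatin, and 24 of them passed the filter. At an unadjusted p under 0.05, 1 of the 24 was higher (CHD7) and 0 were lower, beside 3.42% and 1.32% of all genes tested. Of their log2 fold changes, 19 of 24 were below 0, with a median of -0.16, and after the correction the median was -0.06. Without CBX7 replicate 1, 10 of 24 were below 0 and the median was 0.02. CHD7, a chromodomain remodeller acting at enhancers, was at 6.54 and 8.57 CPM in control cells and at 11.6 and 18.9 CPM with CBX7, so the groups did not overlap. Its log2 fold change was 1.01 (standard error 0.286, edgeR, adjusted p = 0.752), and after the correction it was 1.19 (standard error 0.124, adjusted p = 0.0902). Its adjusted p over all alternatives ranged from 7.21e-15, without CBX7 replicate 1, to 0.999. CHD7 is 11.6 kb long. In the deposited TPM its groups overlapped, at 2.14 and 3.22 against 3.15 and 3.47. After the correction DOT1L, the H3K79 methyltransferase, was lower at an unadjusted p under 0.05 (edgeR, log2 fold change -0.19, adjusted p = 0.632), beside 3.30% of all genes. Its unadjusted p by edgeR was 0.0482 after and 0.257 before the correction.

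Most promoters of the group were rich in CpG. RefSeq promoters were found for 35 of the 42 genes, 60 in all. The comparison set, 35116 RefSeq promoters of 27305 genes, was not limited to the 14862 genes that passed the filter. The 250 bases upstream of the start held a median of 24.5 CpG, against 11 over 35116 promoters of the same length, and 78.3% of the members' promoters held at least 10 CpG against 52.2% of all. The GC box GGGCGG, searched on both strands, was found in 66.7% of the members' promoters and 42.6% of all, and TATAAA in 3.33% and 10.7%. Among the sequences printed above, the window before start 3 of SMARCD3 held 2 GC boxes that overlap each other, that of SMARCD1 held 1 and that of BCL7A held 2, and none held TATAAA. These counts describe the letters of the windows only.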

How the data were processed

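RNA-seq libraries of T24 cells, 2 control and 2 CBX7-overexpressing, were grouped by their titles. The authors deposited 1 table with an expected count, a TPM value and a length per gene. Over all 60623 genes, including those without reads, between 88.2% and 88.9% of the counts per library were whole. The counting tool behind the others is not given in the sources used here. The submitters' processing notes name cutadapt 1.9.1, HISAT2 2.0.1, HTSeq 0.6.1, DESeq2 and hg19, and strand handling is not given. The table also holds the authors' own group means of TPM and their fold changes, p-values and significance calls, which were not used. Library depth was 23626206, 20800910, 25135488 and 21961166 counts, and with 2 libraries per group only large differences can be told from the spread.

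Counts were rounded, filtered with filterByExpr, scaled by TMM and tested with edgeR 4.0.16 (R 4.3.3) by the quasi-likelihood method with Benjamini-Hochberg adjustment over 14862 genes. The length and GC correction fitted splines with 5 degrees of freedom per library over genes averaging 100 counts or more. Alternatives used DESeq2 1.42.0 and limma 3.58.1, other scalings and filters, a replicate block and leaving out each library. Coordinates, exon overlaps and GC content came from GENCODE release 29 on GRCh38, which gave GC for 96.4% of genes and need not be the authors' annotation. Promoter sequences came from RefSeq (GRCh38.p14). The main edgeR fit, the length correction, the length and GC correction and DESeq2's Wald test were first tried on simulated counts. The other alternatives were not. The genes and lists were chosen with earlier results of these data known. Values in every library are given for genes with an unadjusted p under 0.05, the 3 highest and 3 lowest fold changes and the leading 2 genes of each paralog set.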

Additional observations from a re-analysis of the deposited data

How the results depend on the processing

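With an adjusted p under 0.05, the number of the group's genes moved from 0 to 1 (SMARCD3 in each case) when no filter on low counts was used, with DESeq2's Wald test, with the replicate block, and with the replicate block together with the length and GC correction. Leaving out 1 library gave between 0 and 25 genes, with 1 without CBX7 replicate 1 and 25 without CBX7 replicate 2, where the lone CBX7 library is assumed to vary like the other group. Of those 25, 18 were lower and 7 higher, beside 2671 lower and 2820 higher of all 15452 genes in that fit. Over all genes the count moved from 3 to 265 with no filter, 67 by the Wald test of DESeq2, 361 with the replicate block, 160 with the replicate block and the correction, and 5 with the length and GC correction, with or without limits on length and GC. Leaving out 1 library gave between 45 and 5491. The median log2 fold change of the group ranged from -0.145 to 0.0397 when a library was left out and was above 0 only without CBX7 replicate 1. Without that library the log2 fold changes of KMT2D, EP300 and BCL7C also changed sign, to 0.187, 0.0781 and -0.0568, and over all libraries left out they ranged from -1.12 to 0.187, -0.99 to 0.0781 and -0.0568 to 0.648. Between the replicate 2 libraries the log2 ratios of CPM of KMT2D, EP300 and BCL7C were -0.05, -0.06 and 0.02. The fit without CBX7 replicate 1 keeps control replicate 1, whose median log2 ratio to control replicate 2 was -0.28 for the group's genes over 8 kb. The cause of the sign changes was not tested. The lowest count of a tested gene of the group was 156, and the standard errors ran from 0.123 for SMARCA4 to 0.440 for KMT2A.

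The replicate numbers of the titles are not said to mark a shared batch, so the replicate block is only an alternative. In the fit with the block alone and in that without a filter, genes of similar level were given the same spread. Small p-values there do not reflect the spread of the single gene. Deviations from the group means of same-numbered libraries were correlated at 0.867 over the 40 genes and 0.309 over all genes tested. In both groups the log2 ratio of replicate 1 to replicate 2 also followed log10 length over the 40 genes. Pearson's r was -0.78 for the control libraries and -0.88 for the CBX7 libraries. Whether the replicate numbers mark a batch was not tested. With the replicate block, SMARCD3 had a log2 fold change of 1.30 (edgeR, adjusted p = 1.13e-09), and with the block and the correction 1.23 (adjusted p = 0.00571). At an unadjusted p under 0.05, 2 of the 40 genes were higher and 6 lower with the block, beside 865 and 646 of all 14862, and 2 were higher and 4 lower with the block and the correction, beside 955 and 777. The other alternatives, which were other normalizations, the newer quasi-likelihood method, a stricter filter, the length correction alone and log2(TPM + 1) or log2(TPM + 0.1) with limma, changed none of the group's counts of adjusted calls.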
